A study of Mus musculus with 66 samples.

Results

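Fabp3, Fabp5, Crabp1, Crabp2, Rarb, Rarg, Cyp26a1 and Dhrs3 are 8 genes that carry or read out fatty acids and retinoids, and they were followed in RNA from mouse embryonic stem cells. They are 8 of the 55487 genes in the RNA tables and were found by matching Ensembl identifiers to these 8 symbols. The set was put together for the pattern of Fabp3, which was higher in 1 deletion group and lower in the other, so the members' values are a description, and no p is given for them. Only 4 of the 8 encode binding proteins of the cell interior. Rarb and Rarg encode nuclear receptors, and Cyp26a1 and Dhrs3 encode enzymes.

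The study concerned G-quadruplexes (4-stranded DNA folds of runs of G) that occur with R-loops (RNA paired to DNA), and their relation to the chromatin protein CTCF. The 7 RNA libraries came from E14, an established mouse embryonic stem cell line, and none of the cells was drug-treated. There were 3 wildtype libraries, and 4 libraries with the genotype Praf2 G4 Deletion, of which 2 are titled GDel1 and 2 GDel2. The medium of all groups held serum, LIF, a GSK inhibitor and a MEK1/2 inhibitor. No label tells if the GDel1 and GDel2 libraries stem from different clones or if replicates were grown as different cultures, so the spread between libraries may be technical. Bulk RNA cannot tell fewer cells that express a gene from less RNA per cell.

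Small binding proteins of the cell interior shield fatty acids and retinoids from water and hand them on. The proteins of the Fabp genes carry fatty acids, and those of Crabp1 and Crabp2 carry retinoic acid, made from retinol by way of retinaldehyde. DHRS3 turns retinaldehyde back into retinol, CYP26A1 breaks retinoic acid down, and the retinoic acid receptors bind DNA and switch on target genes, among them Rarb and Cyp26a1. In embryonic stem cells retinoic acid is a common trigger of differentiation.

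Depth was 12316853 to 18762704 expected counts per library. Praf2 was lower in all 4 deletion libraries, at 9.66 ± 0.564 CPM (counts scaled to library size; SD, n = 2) in GDel1 and 13.6 ± 0.705 (n = 2) in GDel2, against 28.9 ± 1.56 (n = 3) in wildtype (edgeR adjusted p = 0.00206 and 2.01e-04). The share of counts from mitochondrial transcripts was 9.91% in GDel1 replicate 1 and 9.60% in GDel2 replicate 2, against 4.83 to 6.89% in the other 5 libraries. All 10 markers of naive stem cells were detected in every library, with summed levels of 4921 to 6035 CPM. None of them passed the test in GDel1, where only 0.376% of all genes tested did. In GDel2 2 rose and 4 fell, 60% against 33.1% of all genes tested. Among these, Zfp42 was at 1.15 ± 0.09 (log2 against wildtype, edgeR adjusted p = 5.81e-05) and Tfcp2l1 at -0.81 ± 0.12 (0.00114). The 8 markers of fibroblast feeder cells summed to at most 3.16 CPM. The 8 of muscle and fat cells, tissues known for fatty acid binding proteins, summed to at most 0.473 CPM. The 10 markers of primitive endoderm summed to 187 to 205 CPM in wildtype, 135 to 172 in GDel1 and 212 to 230 in GDel2. Most of this was Sparc, at 182 ± 8.84 CPM in wildtype. Of the 4 tested, Gata4 alone passed in GDel2, 25% against 33.1% of all genes. Gata4 rose from 0.657 to 1.71 CPM (1.39 ± 0.37, edgeR adjusted p = 0.0201). None of the 4 passed in GDel1, where 0.376% of all genes did.

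The promoters of the target genes Rarb and Cyp26a1 are shown because they hold the element through which the receptors act. The letters searched were direct repeats with 5 bases between 2 half-sites, each of the form AGGTCA, of the form AGTTCA, of the form GGGTCA or of the form GGTTCA, on both strands, in RefSeq windows from 250 bases before to 50 after each start (GRCm38.p6). Capitals mark the half-sites. The Rarb stretch lies at chr14:16575491-16575551 on the minus strand, with the repeat at positions -53 to -37 from the start. The Cyp26a1 stretch lies at chr19:37697754-37697807 on the plus strand, with the repeat at -32 to -16 and reading on the opposite strand.
Rarb: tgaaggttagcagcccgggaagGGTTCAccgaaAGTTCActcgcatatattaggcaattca
Cyp26a1: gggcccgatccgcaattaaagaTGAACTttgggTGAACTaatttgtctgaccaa
Such a repeat was found in 32 of 32851 windows (0.0974%). Of the 6 members with a window, these were the 2 that held it. With a spacing of 2 bases it was in 88 windows (0.268%) and in no member. A match is a description of the letters and says nothing of binding in these cells.

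The 250 bases before the Fabp3 start are shown because Fabp3 differed most between groups and because the study concerned G-quadruplexes. They lie at chr4:130308488-130308737 on the plus strand. Capitals mark 4 runs of GGG with 1 to 7 bases between them, at positions -136 to -116.
Fabp3: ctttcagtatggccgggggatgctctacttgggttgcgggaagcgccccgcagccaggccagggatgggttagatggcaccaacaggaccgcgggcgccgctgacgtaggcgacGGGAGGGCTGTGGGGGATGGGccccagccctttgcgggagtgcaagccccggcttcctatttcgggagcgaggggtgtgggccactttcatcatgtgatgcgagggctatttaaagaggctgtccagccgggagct
Runs of this form, searched on both strands, were in 6083 of 32851 windows (18.5%), among them those of Crabp1 and Rarg. Whether the letters fold in these cells was not tested.

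In wildtype cells Fabp3 was the most abundant of the 8 transcripts per length, at 80.8 ± 9.70 TPM (length-scaled abundance, SD, n = 3). Rarg followed at 13.2 ± 1.15 TPM. Dhrs3 (2.79 ± 0.705), Fabp5 (2.52 ± 1.01) and Crabp1 (1.97 ± 0.662) came next, and their libraries overlapped. Crabp2 was lower, at 0.657 ± 0.0929 TPM, with no library as high as the lowest of Crabp1. Rarb (0.120 ± 0.0200 TPM) and Cyp26a1 (0.0700 ± 0.121 TPM) were at the bottom and overlapped each other. In GDel2 the order was different below Rarg: Crabp1 came next after Rarg, at 4.44 ± 0.396 TPM (n = 2), above every library of Fabp5 (2.80 ± 0.615 TPM). Fabp3 itself was still first in GDel2, at 19.1 ± 0.318 TPM against 10.6 ± 4.31 for Rarg.

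Fabp3 encodes the fatty acid binding protein best known from heart and skeletal muscle and lies at chr4:130308738-130315463. Its normalised count was 83.6, 79.4 and 86.1 CPM in the wildtype libraries, 147 and 123 CPM in GDel1, and 19.2 and 22.8 CPM in GDel2. The 3 groups did not overlap, with GDel1 above wildtype and GDel2 below it. The difference from wildtype was 0.70 ± 0.11 (log2, SE of the fit), or 1.63-fold higher, in GDel1, and -1.98 ± 0.12, or 3.95-fold lower, in GDel2. Between the deletion groups, which share the genotype label, GDel2 was 6.42-fold lower than GDel1.

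**Figure D1:**
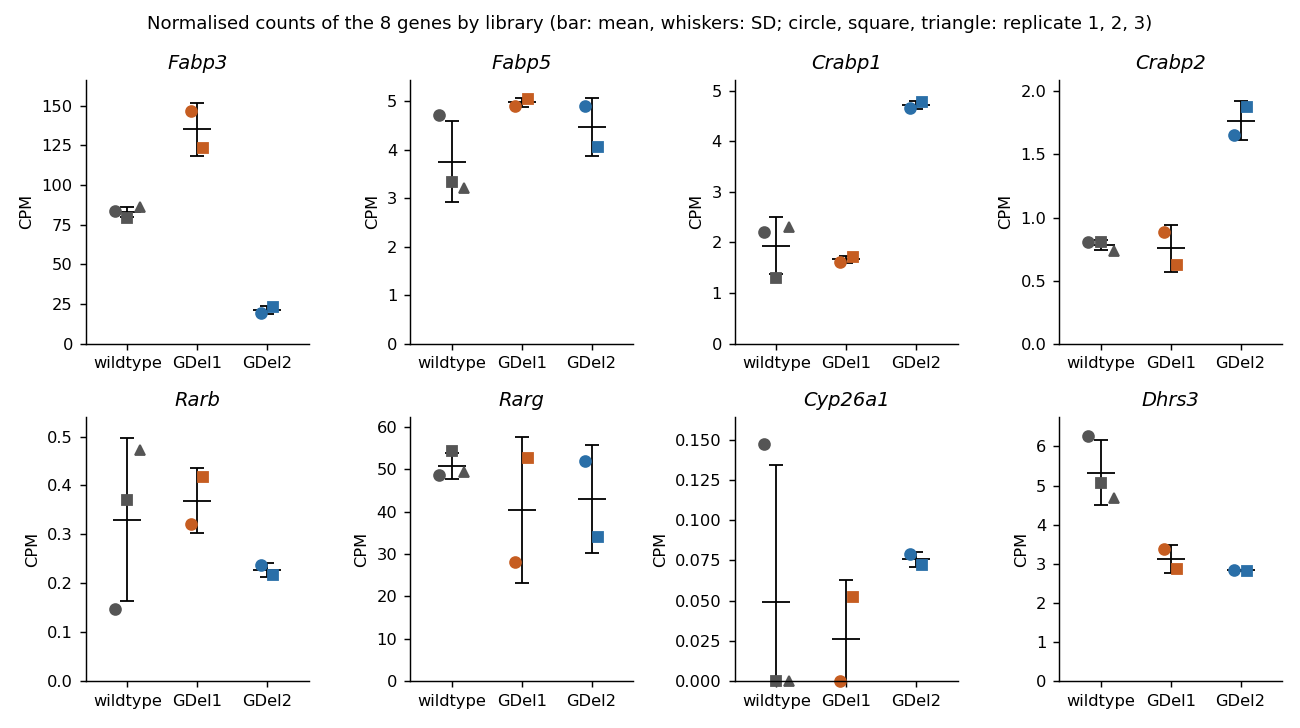
Normalised counts (CPM, linear axes from 0) of each gene in the 3 wildtype, 2 GDel1 and 2 GDel2 libraries, with a bar for the mean and whiskers for the SD. Fabp3 sits at 123 to 147 CPM in GDel1 and 19.2 to 22.8 in GDel2, Crabp1 and Crabp2 are high in GDel2 alone, Dhrs3 is low in both deletions, and 1 library of each deletion is low for Rarg.

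The height of Fabp3 in GDel1 depended on the scale. In TPM the wildtype libraries read 91.1, 71.9 and 79.3 and the GDel1 libraries 100.5 and 91.0, so that the lower GDel1 library lay within the wildtype range. On log2(TPM + 1) the difference was 0.25, while the median of all genes tested was -0.30. Relative to that median Fabp3 was 0.55 higher. The GDel2 libraries, at 18.8 and 19.3 TPM, were far below wildtype on this scale too.

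Some reads of Fabp3 are shared with its pseudogene Fabp3-ps1, and the authors' counting divided them. Fabp3-ps1 had 7.61, 4.12 and 2.78 expected counts in wildtype, 16.4 and 52.9 in GDel1, and 0 in both GDel2 libraries. Those of Fabp3 were 1136, 1283 and 1639 in wildtype, 1826 and 2369 in GDel1, and 243 and 316 in GDel2. With both genes' counts added, the differences of Fabp3 from wildtype were 0.72 ± 0.11 in GDel1 and -1.99 ± 0.12 in GDel2. The end of Fabp3 also overlaps Zcchc17, which did not pass the test in either deletion (edgeR adjusted p = 0.322 and 0.0760).

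Fabp5, the epidermal fatty acid binding protein, passes fatty acids and also retinoic acid to the nuclear receptor PPARδ, and lies at chr3:10012585-10016610. Its wildtype libraries had 4.71, 3.34 and 3.20 CPM, those of GDel1 4.91 and 5.05, and those of GDel2 4.89 and 4.05. The wildtype library at 4.71 CPM stood close to the GDel1 libraries and above the lower GDel2 library. The log2 difference from wildtype was 0.42 ± 0.21 in GDel1 and 0.26 ± 0.22 in GDel2. In TPM GDel1, at 2.18 and 2.84, lay inside the wildtype range of 1.93 to 3.69. Both differences of Fabp5 from wildtype lay above 0, whereas those of Fabp3 had opposite signs.

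Crabp1 binds retinoic acid and passes it to the enzymes that break it down (chr9:54764748-54773110). It was at 2.21, 1.30 and 2.31 CPM in wildtype, 1.61 and 1.72 in GDel1, and 4.66 and 4.77 in GDel2. Both GDel2 libraries stood above all others, while GDel1 lay within wildtype. The difference from wildtype was 1.28 ± 0.25 on the log2 scale in GDel2, 2.42-fold, and -0.22 ± 0.28 in GDel1.

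Crabp2 delivers retinoic acid to the receptors in the nucleus (chr3:87948693-87953372). Its levels were 0.810, 0.804 and 0.735 CPM in wildtype, 0.885 and 0.625 in GDel1, and 1.66 and 1.88 in GDel2. As with Crabp1, the GDel2 libraries were the high ones and GDel1 straddled wildtype. The difference in GDel2 was 1.17 ± 0.29 (log2), 2.26-fold, and in GDel1 -0.08 ± 0.33. Crabp2 rested on few reads, 11 to 14 counts in a wildtype library and 21 and 26 in GDel2. Pooled over a group's libraries, 0.779 CPM in wildtype had an exact 95% Poisson interval of 0.551 to 1.07 and 1.77 CPM in GDel2 one of 1.30 to 2.36, which cover counting error only.

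Crabp1 and Crabp2 are also expressed in the developing nervous system, and 8 neuroectoderm markers were read beside them. Of the 4 markers tested, 3 rose in GDel2, or 75%, where 17.4% of all genes tested rose. They were Tubb3, a neuronal tubulin, by 1.49 ± 0.08 on the log2 scale (edgeR adjusted p = 1.22e-05), the transcription factor gene Sox1 by 1.26 ± 0.22 (0.00282) and the filament gene Nes by 0.60 ± 0.13 (0.00843). Map2 was at -0.34 (0.235). The 8 markers summed to 49.2 to 53.6 CPM in wildtype, 56.2 to 61.8 in GDel1 and 114 to 119 in GDel2, mostly from Tubb3. Pax6, which did not pass the filter on low counts, was at 0.0736, 0 and 0.0525 CPM in wildtype, 0.0805 and 0.0520 in GDel1, and 0.316 and 0.651 in GDel2, so that its GDel2 libraries too were the highest. Pax3 was at no more than 0.0789 CPM and Zic1 at no more than 0.237 CPM in any library. The part of these markers in the Crabp1 and Crabp2 values was not tested.

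Rarg encodes the retinoic acid receptor that stem cells express at the higher level of the 2 receptors here, and it lies at chr15:102234938-102257522. Its libraries read 48.7, 54.3 and 49.3 CPM in wildtype, 28.1 and 52.6 in GDel1, and 52.0 and 34.0 in GDel2. In each deletion 1 library was within the wildtype range and the other was at 55.4% (GDel1) or 66.9% (GDel2) of the wildtype mean. The differences from wildtype were -0.32 ± 0.28 (log2) in GDel1 and -0.24 ± 0.28 in GDel2.

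The 2 low libraries of Rarg were those with the highest mitochondrial shares, 9.91% and 9.60%. The remaining library of each deletion was at 104% (GDel1) and 102% (GDel2) of the wildtype mean. The part of the mitochondrial share in this level was not tested.

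**Figure D2:**
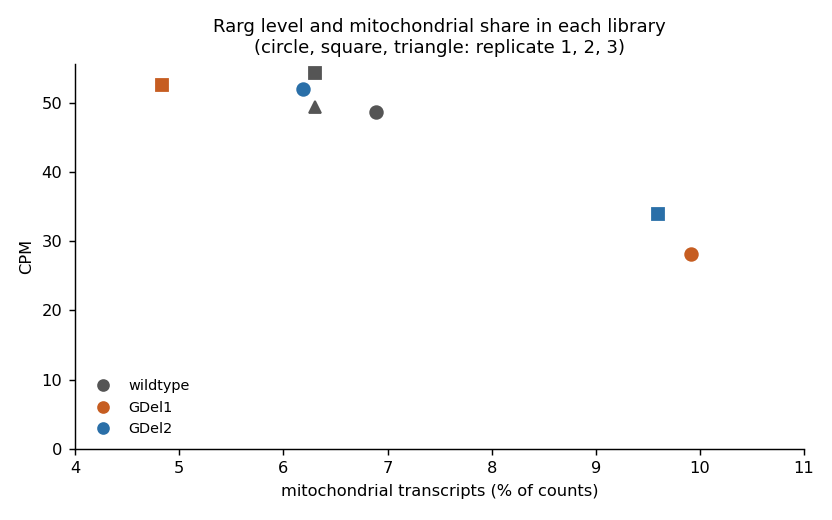
Level of Rarg (CPM, y axis) against the share of counts from mitochondrial transcripts (%, x axis), 1 point per library, coloured by group. The 2 libraries above 9% are the lowest, and the other 5, at 4.83 to 6.89%, lie together at 48.7 to 54.3 CPM.

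Rarb, the receptor gene that retinoic acid itself switches on, lies at chr14:16430839-17082331 and had hardly any reads. It had 2, 6 and 9 counts in wildtype, 4 and 8 in GDel1 and 3 in each GDel2 library, and did not pass the filter on low counts. The pooled levels were 0.348 CPM (exact 95% Poisson interval 0.203 to 0.558) in wildtype, 0.379 (0.196 to 0.663) in GDel1 and 0.226 (0.0831 to 0.493) in GDel2. The ratios to wildtype were 1.09 (0.474 to 2.42) and 0.650 (0.210 to 1.73), so that a difference of up to about these bounds was not detectable at this depth.

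Cyp26a1, the enzyme that clears retinoic acid and another target of the receptors, was at the limit of detection (chr19:37697738-37701536). There were 2 counts over the wildtype libraries, 1 over GDel1 and 2 over GDel2. The pooled levels were 0.0410 CPM (exact 95% Poisson interval 0.00496 to 0.148) in wildtype, 0.0316 (8.00e-04 to 0.176) in GDel1 and 0.0755 (0.00914 to 0.273) in GDel2, and no fold is given for so few counts. Both of the members whose promoters hold the repeat shown above were thus near 0 in all 3 groups.

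Dhrs3 acts a step before retinoic acid, by reducing retinaldehyde to retinol (chr4:144892534-144928209). Its libraries read 6.26, 5.07 and 4.67 CPM in wildtype, 3.38 and 2.86 in GDel1, and 2.84 and 2.82 in GDel2. All 4 deletion libraries were below all 3 wildtype libraries, at 52.9 to 63.4% of the wildtype mean, so that unlike Fabp3 it was lower in both groups. The log2 difference was -0.78 ± 0.20 (1.71-fold lower) in GDel1 and -0.91 ± 0.20 (1.87-fold lower) in GDel2. Dhrs3 lies inside the span of Vps13d, a gene read at 177 CPM in wildtype, so reads of the 2 could be mixed where counting ignored strand, and the sources used here do not give the strand setting. Vps13d was at -0.21 (log2, edgeR adjusted p = 0.168) in GDel1 and fell by 0.28 (0.0283) in GDel2.

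The estimated mixture of Dhrs3 transcripts also differed between libraries. This estimate rests on 36 to 89 counts a library, divided over 7 transcripts. Whether the mixture differed beyond the error of the estimate was not tested. The abundance-weighted length of the Dhrs3 transcripts was 1386 to 1424 bases in wildtype, 1868 and 1562 in GDel1, and 1251 and 1322 in GDel2. TPM divides by this length, and in TPM the GDel1 libraries were lowest, at 0.900 and 1.00, with GDel2 at 1.70 and 1.36 and wildtype at 3.59, 2.50 and 2.27. In TPM both deletions were again below wildtype, but their order was the reverse of that in CPM. The median of all genes also differed on this scale: on log2(TPM + 1) GDel2 against GDel1 was 0.37 for Dhrs3 and 0.24 for the median gene, which leaves 0.13. Relative to the median, Dhrs3 was at -0.64 in GDel1 and -0.52 in GDel2 against wildtype. Fabp3 and Crabp1 have 1 transcript each, so their length could not vary. Crabp2, with 2 transcripts, had the same length in all 7 libraries.

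**Figure D3:**
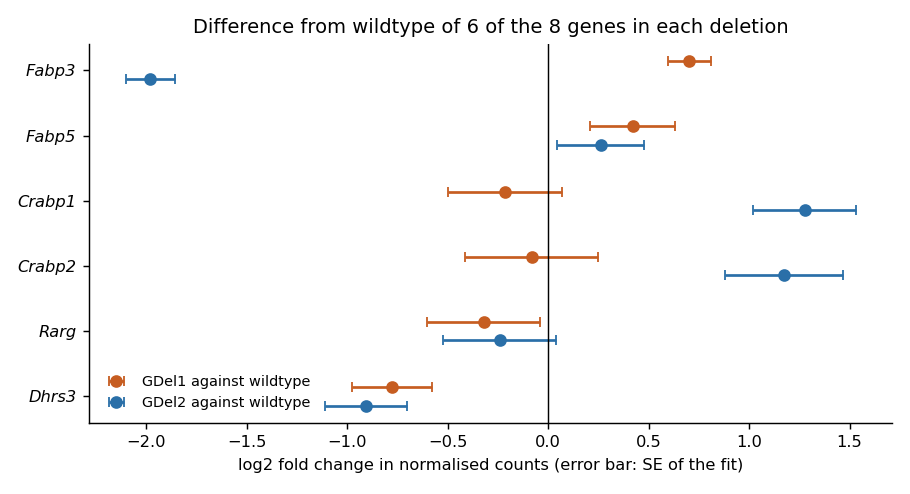
Log2 difference from wildtype (x axis) of the 6 genes that passed the filter on low counts, with the SE of the fit, for GDel1 and GDel2. Fabp3 lies on opposite sides of 0 in the 2 deletions, Crabp1 and Crabp2 lie above 1 in GDel2 only, and Dhrs3 lies below 0 in both.

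Read as a set, the 8 members did not share a direction. In GDel1 1 member (Fabp3) was past the threshold of an edgeR adjusted p under 0.05, where 0.376% of the 15421 genes tested were called, and 3 (Fabp3, Fabp5, Dhrs3) did not overlap wildtype, where 43.5% of all genes tested did not. In GDel2 4 members were past the threshold, 2 higher (Crabp1, Crabp2) and 2 lower (Fabp3, Dhrs3), against 33.1% of genes, 17.4% higher and 15.6% lower, and the same 4 did not overlap, against 63.2%. Between GDel2 and GDel1 3 members (Fabp3, Crabp1, Crabp2) were past it, against 27.7% of genes, and 5 did not overlap, against 59.1%. Since the members were chosen on these comparisons, nothing is read from the counts. The median log2 difference of the 6 members that passed the filter was -0.15 in GDel1 and 0.01 in GDel2, against 0.00262 and 0.01 over all genes tested.

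Of 11 other genes of the family of small binding proteins, 9 had no count in any library, among them Fabp4 of fat cells and Fabp7 of neural progenitors. Rbp7 was at no more than 0.158 CPM.

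No gene of the 7 lists of other retinoid and fatty acid genes passed the test in GDel1, where 0.376% of all genes did. Of 133 listed genes 90 were tested, and in GDel2 15 rose and 29 fell, 48.9% of those tested against 33.1% of all genes. The median of the 90 was -0.13 in GDel1 and -0.19 in GDel2. The count of 0 in GDel1 was not stable: it was 10 with DESeq2, 12 without GDel1 replicate 1, 10 without GDel1 replicate 2, 1 without GDel2 replicate 2 and 36 without both libraries of high mitochondrial share, a fit that leaves 1 library in each deletion group and assumes that it varies like wildtype. At an unadjusted p under 0.05 edgeR had 37 of the 90 (41.1%) in GDel1, against 24.5% of all genes. The 44 calls in GDel2 were 29 without GDel2 replicate 2.

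Retinoid uptake, synthesis and breakdown had 12 of 29 genes tested, of which 1 rose and 3 fell in GDel2, 33.3% against 33.1% of all genes. The list's median was 0.10 in GDel1 and -0.24 in GDel2. Rdh11, which reduces retinaldehyde as Dhrs3 does, rose from 29.3 ± 1.77 CPM in wildtype to 51.8 ± 3.57 in GDel2, by 0.82 ± 0.12 on the log2 scale (edgeR adjusted p = 0.00113). Dhrs4, another retinoid dehydrogenase/reductase, fell from 5.93 to 2.35 CPM, by 1.33 ± 0.30 (0.00976, and 0.0924 without GDel2 replicate 2). Scarb1, a lipoprotein and carotenoid receptor, fell by 0.37 ± 0.12 (0.0408), a call lost when any wildtype replicate or GDel2 replicate 2 was left out (0.0828 to 0.257).

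Receptors and cofactors had 15 of 20 genes tested, with 1 higher and 5 lower in GDel2, 40% against 33.1% of all genes. The list's median was -0.28 in GDel1 and -0.23 in GDel2. Rara, the remaining retinoic acid receptor, rose from 21.5 ± 0.583 to 37.9 CPM, by 0.82 ± 0.15 (edgeR adjusted p = 0.00379). By limma on log2(TPM + 1) its adjusted p was 0.109. Rarg was at -0.24 in GDel2, and Rarb, on very few counts, had a ratio to wildtype of 0.650 (0.210 to 1.73). Ncoa3, a coactivator, fell by 0.71 ± 0.12 (0.00228). Ppard, the receptor that Fabp5 feeds, fell from 31.7 to 19.1 CPM, by 0.73 ± 0.22 (0.0383), and its call was lost without each library other than GDel2 replicate 1 (0.0546 to 0.155). In GDel1 Ppard was at 16.2 CPM, -0.96 ± 0.23 (0.0663).

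Among targets of retinoic acid 11 of 16 were tested, and 1 rose and 3 fell in GDel2, 36.4% against 33.1% of all genes. Their median was -0.52 in GDel1, further from 0 than the -0.35 in GDel2. Stra8, a gene that retinoic acid induces in germ cells before meiosis, had the largest rise of the listed genes, from 0.0736, 0.309 and 0.210 CPM in wildtype to 3.39 and 2.96 in GDel2 (3.91 ± 0.45, edgeR adjusted p = 3.51e-04). In GDel1 Stra8 stayed at 0.0805 and 0.312 CPM. With wildtype and GDel1 this low, Stra8 passed the filter on low counts only through GDel2, the group where it is high. At a minimum count of 50 it was not tested. Meis2, a homeobox gene, went the other way, from 54.3, 43.1 and 48.9 CPM to 4.73 and 6.36 (-3.13 ± 0.17, 9.81e-06). Rec8, which encodes a cohesin subunit of meiosis, fell from 15.0 ± 0.487 to 5.77 CPM (-1.38 ± 0.16, 3.46e-04). These 3 named targets thus moved in both directions in GDel2.

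**Figure D4:**
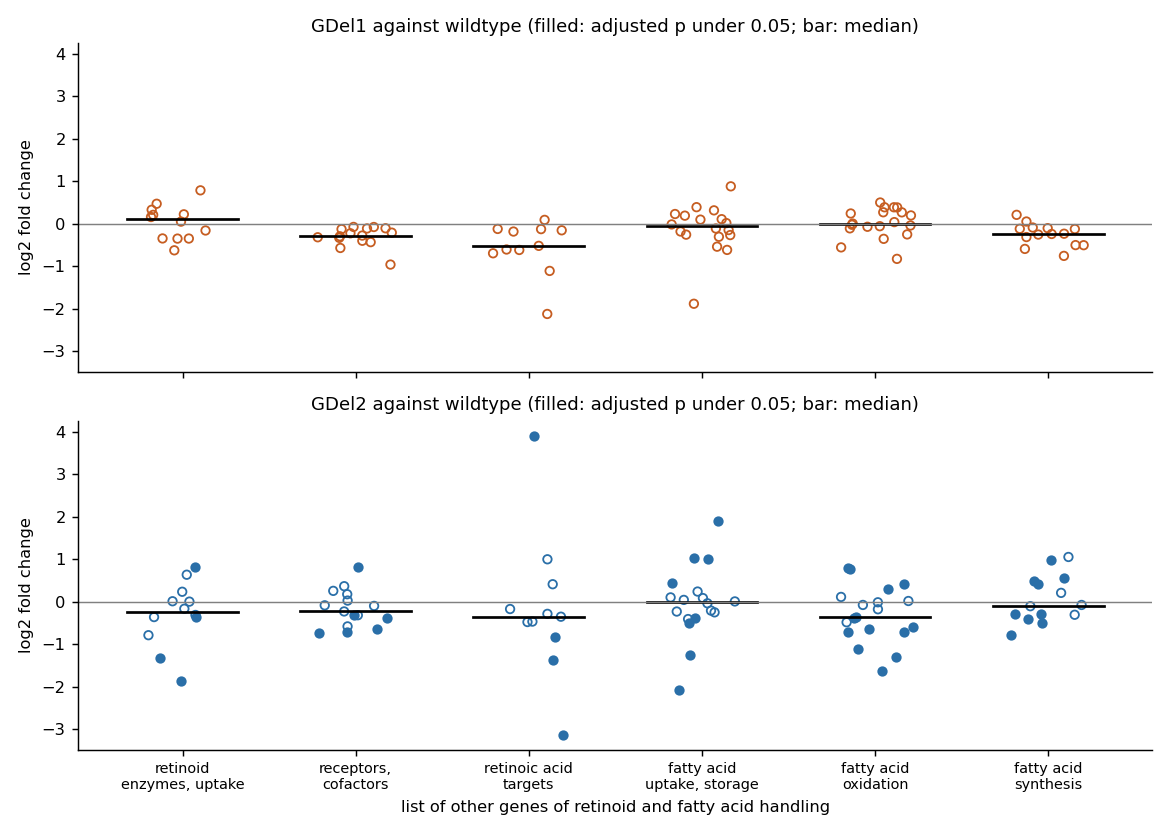
Log2 difference from wildtype (y axis) of each tested gene in 6 lists (x axis), GDel1 above and GDel2 below, with filled points for an edgeR adjusted p under 0.05 and a bar at the list's median. All GDel1 points are open, and in GDel2 the retinoic acid targets span from -3.13 (Meis2) to 3.91 (Stra8).

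Fatty acid uptake and storage had 18 of 22 genes tested, with 4 higher and 4 lower in GDel2, 44.4% against 33.1% of all genes. The list's median was -0.06 in GDel1 and -0.02 in GDel2. Acsl6, which activates long-chain fatty acids, rose from 1.55 to 5.78 CPM (1.89 ± 0.22, edgeR adjusted p = 3.61e-04). Mgll, which releases fatty acids from monoglycerides, fell from 4.18 to 0.986 CPM (-2.08 ± 0.25, 4.41e-04), and Lpl, the lipase that frees fatty acids from lipoproteins, fell from 16.4 to 6.82 CPM (-1.26 ± 0.17, 7.15e-04).

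Fatty acid oxidation had 19 of 21 genes tested, and in GDel2 4 rose and 9 fell, 68.4% against 33.1% of all genes. The list's median was 0.00275 in GDel1 and -0.35 in GDel2, against 0.00262 and 0.01 over all genes. Pdk4, a kinase that holds back glucose oxidation, fell from 7.63 to 2.48 CPM (-1.63 ± 0.23, edgeR adjusted p = 0.00106). Ucp2, a carrier of the inner mitochondrial membrane, fell from 219 ± 5.36 to 88.4 CPM (-1.31 ± 0.15, 3.05e-04). Cpt1c, a relative of the carnitine transferases that admit fatty acids to mitochondria, fell from 27.5 to 12.8 CPM (-1.11 ± 0.14, 5.34e-04). Ucp2 and Pdk4 were lower in GDel1 too, at -0.56 and -0.83, without passing the test (0.0698 and 0.0704).

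Fatty acid synthesis had all 14 genes tested, of which 4 rose and 5 fell in GDel2, 64.3% against 33.1% of all genes. The list's median was -0.24 in GDel1, further from 0 than the -0.09 in GDel2. Acacb, which makes malonyl-CoA, rose from 10.9 to 21.4 CPM (0.97 ± 0.13, edgeR adjusted p = 6.69e-04, and 0.0504 by limma on log2(TPM + 1)), and Fads2, a desaturase, from 64.2 to 94.0 CPM (0.55 ± 0.08, 0.00107, and 0.0949 by limma). Fasn, the fatty acid synthase, fell by 0.78 ± 0.19 (0.0156), with its lowest libraries again those of high mitochondrial share, at 598 CPM in GDel1 and 496 CPM in GDel2 against 751 to 1079 CPM in the other 5, and 0.0923 without GDel2 replicate 2.

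Some of these genes lie on chromosomes whose median differed from 0 in GDel2. The median log2 difference from wildtype was 0.51 on chromosome 6, which holds Stra8, Mgll and Pdk4, and 0.44 on chromosome 8, which holds Lpl. Medians nearer 0 were 0.105 on chromosome 11 (Acsl6, Rara, Fasn), -0.127 on 7 (Ucp2, Cpt1c), -0.103 on 17 (Ppard) and -0.102 on 19 (Fads2). The members lie on chromosomes 3, 4, 9, 14, 15 and 19. Medians there were 0.0107 on chromosome 3, -0.0336 on 4 and -0.0438 on 9, the chromosomes of Fabp3, Crabp1 and Crabp2.

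Within 200 kb of a member 47 other genes were tested. None passed in GDel1 by edgeR, where 0.376% of all genes did. There 12 (25.5%) had an unadjusted edgeR p under 0.05, against 24.5% of all genes. In GDel2 7 rose and 8 fell, 31.9% against 33.1% of all genes. Next to Fabp3, 1033 bases before its start, Gm10570 was at 0.528 CPM in wildtype, 0.819 in GDel1 and 0.112 in GDel2 (-2.15 ± 0.65 in GDel2, edgeR adjusted p = 0.0323), the same order as Fabp3 at very low counts. Snrnp40, on the other side of Fabp3, rose by 0.27 ± 0.08 in GDel2 (0.0338).

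Near the other members, calls in GDel2 went both ways. Beside Crabp2, Nes and Bcan (1.08 ± 0.28, edgeR adjusted p = 0.0194) rose, and Rrnad1 (-0.59) and Iqgap3 (-0.36) fell. Beside Rarg, Itgb7 rose (1.30 ± 0.27, 0.00729) and Csad (-0.99), Gm9918 (-1.33) and Aaas (-0.36) fell. Oxsm (0.60) and Ngly1 (1.04), the called neighbours of Rarb, rose, while Rarb itself had 3 counts in each GDel2 library. Pag1 beside Fabp5 fell by 1.34, and Psma4 beside Crabp1 rose by 0.40. Against GDel1, where 5 neighbours were higher and 5 lower in GDel2 (21.3% against 27.7% of all genes), Ireb2 beside Crabp1 was at -0.37 (0.0295) and Eif4b beside Rarg at -0.34 (0.0190).

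The genes whose profile over the 7 libraries was nearest to a member's were found by the root mean square difference of log2 CPM, centred on the wildtype mean, among genes of at least 5 CPM. For Fabp3 they were Trpm1, a cation channel (0.130), Stmn3, of the stathmin family (0.174), and Tmem144 (0.197). Trpm1 averaged 48.0, 73.8 and 12.8 CPM in wildtype, GDel1 and GDel2, and Stmn3 8.61, 14.4 and 1.97 CPM. For Crabp1 they were Nova1 (0.156), Tmtc1 (0.169) and Rnf166 (0.228), and for Crabp2 Tmem209 (0.0453), Snap47 (0.0507) and Dhrs7b (0.0542). Tmem209 averaged 125 CPM in wildtype, 126 in GDel1 and 272 in GDel2. Tmem209 and Tmtc1 lie on chromosome 6 and Rnf166 on chromosome 8, whose medians in GDel2 are given above, and Snap47 and Dhrs7b lie on chromosome 11, whose median was 0.105. These genes were picked for their likeness, so the likeness is a description.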

How the data were processed

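Each of the 7 RNA libraries has 1 deposited table of RSEM gene results with expected counts, the authors' estimates of reads per gene, not scaled for depth. Other deposited columns are TPM, which the authors scaled for gene length and library total, FPKM (not used), and abundance-weighted transcript lengths in bases. Per the submitters' processing notes, the build was mm10 and the tools include RSEM and STAR, with no version. The sources used here give neither the annotation release nor the strand setting. Per the labels' protocols, ribosomal RNA was removed before directional libraries were made. The series has 66 samples, of which 59 were not analysed here.

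Expected counts were rounded and filtered with filterByExpr (minimum count 10, minimum total 15), which left 15421 genes. R 4.3.3 and edgeR 4.0.16 (TMM scaling, robust quasi-likelihood F test, 1 fit of 3 groups) gave log2 differences, SE and Benjamini-Hochberg adjusted p over all genes tested, 2-sided, with a threshold of 0.05. CPM are scaled by TMM library sizes. All adjusted p come from edgeR unless limma 3.58.1 or DESeq2 1.42.0 is named. Comparisons with wildtype share its 3 libraries. Intervals for pooled counts are exact Poisson. The fit was tested on simulated data. Replicates differed by more than counting noise (chi-square per degree of freedom 4.79 to 67.8).

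The members, gene lists and rules were chosen with earlier results of these data known. Named were the 8 members, Praf2, from each list and comparison up to 3 called genes of at least 2 CPM with the largest difference (otherwise the 2 highest tested), called neighbours within 200 kb, and the 3 nearest profiles of each member that differed by 1 or more (log2). Symbols, positions and promoter windows are from RefSeq (GRCm38.p6). Some items named by this rule are not reported here.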

Additional observations from a re-analysis of the deposited data

Results flagged for a closer look

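Between the deletions 40 of the 90 listed genes tested were called, 20 higher and 20 lower in GDel2, 44.4% against 27.7% of all genes. The listed genes below are only the up to 3 of each list with the largest difference, of at least 2 CPM. With 2 of the 8 members they make 20 cases in which the difference from wildtype was not the same in GDel1 and GDel2. Each is given as the log2 difference of GDel2 against GDel1, in which the shared wildtype libraries cancel, with the edgeR adjusted p and 2 libraries a group. For 2 of the 8 genes all GDel1 libraries lay on 1 side of the wildtype mean and all GDel2 libraries on the other. Fabp3 was at -2.68 and Crabp1 at 1.49, and for these no test of the difference is given, since both genes belong to a set chosen on these comparisons.

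Among genes of retinoid handling, Dhrs4 was at -2.12 (0.00167) and Aldh1a3, an enzyme that makes retinoic acid, at -2.08 (0.00620). Rdh11 was at 0.49 (0.0235), and this call was lost when wildtype replicate 2, GDel1 replicate 2 or either GDel2 replicate was left out (0.0501 to 0.120). The receptor Rara was at 1.04 (0.00267). The corepressor Nrip1 was at 0.49 (0.0313), lost without wildtype replicate 2, GDel1 replicate 1 or either GDel2 replicate (0.0636 to 0.127). The coactivator Ncoa2 was at 0.47 (0.00875, and 0.0575 without GDel2 replicate 1). Of the retinoic acid targets, Stra8, which passed the filter on low counts only through GDel2, was at 3.82 (0.00106). Meis2 was at -3.01 (1.96e-05) and Rec8 at -0.86 (0.00661). On log2(TPM + 1) Rec8 was at -0.14 (limma adjusted p = 0.676), or -0.38 relative to the median of all genes, and Nrip1 was not called either (0.123).

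Among genes of fatty acid handling, Acsl6 was at 1.91 (9.02e-04) and Mgll at -1.81 (0.00166). Dgat2, which makes triglycerides, was at 1.65 (0.0120, and 0.0776 without GDel2 replicate 1), with 3.00 CPM in wildtype, 0.762 in GDel1 and 2.54 in GDel2. In oxidation, Acaa2 was at -0.98 (6.48e-04) and Acadvl at -0.98 (0.0108, and 0.0625 or 0.0575 without either GDel2 replicate). On log2(TPM + 1) Acaa2 was at -0.57 (limma adjusted p = 0.0551), or -0.82 relative to the median, and Acadvl at -0.25 (0.392), or -0.49 relative to the median. Cpt1b was at 0.87 (0.0407), a call lost without each library other than wildtype replicate 1 (0.0581 to 0.174). In synthesis, Mlxipl was at 1.81 (0.0176, and 0.0741 without GDel1 replicate 2 or 0.121 without GDel2 replicate 2), Me1 at 0.80 (9.68e-04) and Fads2 at 0.79 (4.18e-04).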

How the results depend on the processing

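Fabp3 kept its direction in all 3 comparisons under every alternative run. Leaving out 1 library at a time, it ranged from 0.57 to 0.82 (log2) in GDel1, -2.12 to -1.87 in GDel2 and -2.82 to -2.56 between them. On log2(TPM + 1) and log2(TPM + 0.1) it was 0.25 and 0.25 in GDel1, and -2.27 and -2.32 for GDel2 against GDel1, while the median of all genes was -0.30 and -0.44 in GDel1. There GDel1 had 2337 and 2637 called genes in place of 58, of which 1.28% and 1.10% were higher, against 43.1% by edgeR, and 90.1% and 89.2% of GDel2 against GDel1 calls were higher, against 53.6%. Genes called in GDel1 were 993 with DESeq2 (55.8% higher), 2357 with no filter (56.1% higher), 29 with a minimum count of 50, and 4 to 2034 leaving out 1 library: 4 without wildtype replicate 1 or 2, 9 without wildtype replicate 3, 14 without GDel2 replicate 1, 856 and 2034 without either GDel1 replicate. GDel2 had 2368 and 2187 on the TPM scales and 2643 to 6578 leaving out 1 library, in place of 5099; the lowest was without GDel2 replicate 2, with 3391 without wildtype replicate 2. GDel2 against GDel1 had 2602 (without GDel2 replicate 2) to 5617, in place of 4268, with 2805 without GDel2 replicate 1. Listed genes called in GDel1 were 10 with DESeq2, 18 with no filter, 29 and 32 on the TPM scales and 0 to 12 leaving out 1 library; in GDel2 21 and 21 on the TPM scales and 29 to 53 leaving out 1 library, in place of 44; and between the deletions 25 and 25 on the TPM scales, in place of 40. Chosen after seeing the data, the fit without both libraries of high mitochondrial share had 4262 genes and 36 listed genes called in GDel1, with 1 library left in each deletion group, assumed to vary like wildtype. Of 36 named calls, 25 held without any 1 library and 20 under every alternative in which their gene was tested. Stra8 and Aldh1a3, counted among the 20, did not pass the filter at a minimum count of 50. On each TPM scale 10 named calls were lost. In GDel2 they were Rara, Acacb, Fads2, Scarb1 and Ppard (limma adjusted p 0.0504 to 0.162). Between the deletions they were Rec8, Acaa2, Acadvl, Nrip1 and Cpt1b (0.0516 to 0.676). The causes were not tested.

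Deviations of same-numbered libraries correlated at 0.0578, -0.115 and -0.208 between the groups. The libraries of high mitochondrial share carry different numbers, replicate 1 in GDel1 and replicate 2 in GDel2. These correlations therefore cannot tell whether the replicate numbers pair the libraries. With the replicate number as a block, 1 gene was called in GDel1, 2296 in GDel2 and 2235 between them, and 25 and 19 listed genes in the last 2. With the GDel2 numbers crossed, 277, 4388 and 4197 genes were called. Rarb and Cyp26a1 had too few reads for any comparison to be precise.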
